A study of Mus musculus with 11 samples.

Results

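The NF-kB subunit genes Nfkb1, Nfkb2, Rel, Rela and Relb were followed in primary mouse microglia. So were the genes listed with them as inhibitors, Nfkbia, Nfkbib, Nfkbie and Nfkbiz of the IκB family and Tnfaip3. The genes were chosen by symbol from a count table of 16934 genes under a rule that uses no measured value, although earlier results of these libraries were known when it was written. The 10 genes were all present in it, and all 10 were among the 11276 genes that passed the filter on low counts. The libraries were made with a 3′ mRNA kit from microglia, the macrophages that live in brain tissue, of the C57BL/6 strain, taken from pups on postnatal days 0 to 3, cultured for 7 to 10 days in serum-containing medium and not passaged. In 4 libraries the microglia had spent 6 h with primary cortical neurons, themselves 14 days in vitro, that had carried fluorescent α-syn fibrils (Atto488-labelled, 0.1 µM, given for 16 h and then washed off). In 3 libraries the microglia had spent 6 h with untreated neurons of the same kind, and 4 libraries came from microglia alone. The fibrils are aggregates of α-synuclein, the protein that accumulates in Parkinson's disease, and the title of the series concerns tunneling nanotubes, thin cellular bridges. Libraries are numbered within their group, and the numbers pair no libraries across groups. Whether the libraries of one group stem from different cultures or animals is not stated in the labels, and the p-values therefore measure only the spread between these libraries, which may be technical.

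NF-kB is a family of transcription factors that bind DNA as pairs of subunits. In resting cells the pairs are held in the cytoplasm by IκB proteins, and an activated IκB kinase marks IκB for destruction, which frees the pairs to enter the nucleus. Several of the genes then switched on encode inhibitors of the pathway itself, among them IκBα and the ubiquitin-editing enzyme A20, which makes transcripts of these inhibitors a common readout of recent NF-kB activity. In microglia the pathway is known for driving cytokine and chemokine genes after Toll-like receptor or cytokine signals.

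The depth was 8253070 to 14844071 counts per library with fibril-loaded neurons, 10925771 to 16802451 with untreated neurons and 10700940 to 14541179 in microglia alone. Levels are given as CPM, counts scaled by TMM-adjusted library size, and since the kit reads the 3′ end of each transcript they are not divided by gene length. All 16 microglial marker genes were detected in each group. Their summed level was 15244 to 21574 CPM with fibril-loaded neurons, 17586 to 21103 CPM with untreated neurons and 13887 to 15114 CPM in microglia alone. The summed level of 20 neuronal markers was 813 to 1209 CPM with fibril-loaded neurons, where Snap25, Syp, Slc17a6 and Gad1 were at 0. It was 639 to 897 CPM with untreated neurons, where 8 markers, these 4 among them, were at 0. It was 1342 to 1602 CPM in microglia alone, where Snap25, Nefm, Slc17a7 and Slc17a6 were at 0. The neuronal sum was thus highest in the group without neurons, and it cannot serve as a measure of neuronal content. Summed levels of 11 astrocyte markers were 26.9 to 123 CPM with fibril-loaded neurons, 29.9 to 114 CPM with untreated neurons and 22.4 to 56.9 CPM in microglia alone. Border macrophage markers summed to 1185 to 1934 CPM with fibril-loaded neurons, 1657 to 1928 CPM with untreated neurons and 1120 to 1579 CPM in microglia alone. Neutrophil and monocyte markers summed to 40.3 to 71.3 CPM with fibril-loaded neurons, 47.9 to 105 CPM with untreated neurons and 14.9 to 67.0 CPM in microglia alone. Oligodendrocyte lineage markers summed to 163 to 356 CPM with fibril-loaded neurons, 273 to 329 CPM with untreated neurons and 184 to 305 CPM in microglia alone. Endothelial markers reached at most 113 CPM and fibroblast and mural markers at most 23.4 CPM in a library. The ribosomal precursor Rn45s took 10.97% to 17.01% of counts with fibril-loaded neurons, 10.7% to 15.7% with untreated neurons and 14.001% to 24.8% in microglia alone.

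Promoter sequence from RefSeq on GRCm38.p6, the assembly that mm10 also denotes, was found for 7 of the 10 genes, Nfkb2, Rel, Rela, Nfkbia, Nfkbib, Nfkbie and Tnfaip3, from 250 bases before to 50 bases after each annotated start. These windows were searched on both strands for the κB motif, a decamer of 3 G, 1 purine, 2 free bases, 2 pyrimidines and 2 C. The motif lay in the windows of 5 of the 7 genes (71.4%), and in those of 2581 of 27025 genes in the whole table (9.55%). A match is a stretch of letters and not a measured binding site. The stretches upstream of the first listed start are shown 5′ to 3′ on the gene's strand because they place the motif beside the genes whose transcripts are described here, with the matches in capitals and overlapping matches on the 2 strands run together.
Nfkbia, chr12:55492648-55492897, minus strand: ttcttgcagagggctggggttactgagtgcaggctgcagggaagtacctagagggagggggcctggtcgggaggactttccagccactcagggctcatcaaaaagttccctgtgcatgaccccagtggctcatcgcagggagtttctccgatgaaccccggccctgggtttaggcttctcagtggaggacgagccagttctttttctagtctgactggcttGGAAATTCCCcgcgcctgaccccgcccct
Tnfaip3, chr10:19015411-19015550, minus strand: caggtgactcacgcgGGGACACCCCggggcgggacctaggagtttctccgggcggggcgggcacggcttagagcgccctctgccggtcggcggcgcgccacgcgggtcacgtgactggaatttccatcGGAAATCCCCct
Nfkb2, chr19:46304683-46304736, plus strand: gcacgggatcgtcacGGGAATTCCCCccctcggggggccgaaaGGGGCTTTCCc
Rel, chr11:23771036-23771076, minus strand: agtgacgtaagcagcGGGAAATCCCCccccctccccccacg
Nfkbie, chr17:45555579-45555618, plus strand: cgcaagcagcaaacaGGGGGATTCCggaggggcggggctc
The Nfkbia match began 29 bases before the start of the gene, which lies at chr12:55489409-55492647. The Tnfaip3 matches began 125 and 12 bases before the start of the gene, at chr10:19000910-19015410. At its first listed start the Nfkb2 matches began 39 and 11 bases upstream, the Rel match 92 and the Nfkbie match 106. The windows of later listed Nfkb2 starts held further matches, and that of the later Tnfaip3 start held none. A gene was counted as having the motif if any of its windows held a match. No match to these letters lay in the windows of Rela and Nfkbib.

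Nfkbia, which encodes IκBα, was the 1 gene of the 10 whose transcript passed the edgeR test in any comparison. It was higher with fibril-loaded neurons than in microglia alone, by 1.52 on the log2 scale (edgeR adjusted p = 0.0393). With untreated neurons its rise was nearly the same, 1.43, and just missed the threshold (edgeR adjusted p = 0.0578). The call with fibril-loaded neurons was lost in 6 of the 11 refits that left out 1 library. Transcripts of Nfkb1, Nfkb2 and Relb had higher means in both co-cultures and Rela had lower ones, but these differences did not pass. Tnfaip3, which encodes A20, was scarce, and its highest values lay with untreated neurons. Between the co-cultures no gene of the 10 differed past the threshold. Differences were tested with edgeR's quasi-likelihood test over all 11 libraries, two-sided, with Benjamini-Hochberg adjustment over the 11276 genes, and a gene was called below an adjusted p of 0.05.

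With fibril-loaded neurons, 1 of the 10 was called higher than in microglia alone and 0 lower, where 0.266% of all tested genes were called higher and 0.0532% lower. An unadjusted p under 0.05 was found for 4 of the 10, against 8.14% of all genes, and the CPM ranges of the groups did not overlap for 3 of the 10, against 5.62%. DESeq2 and limma also called 1 of the 10 higher, Nfkbia, and 0 lower, where DESeq2 called 1.27% of all genes higher and 1.03% lower and limma 0.319% higher and 0.0355% lower. With untreated neurons, edgeR called 0 of the 10 against microglia alone, where 0.461% of all genes were called higher and 0.177% lower. There 4 of the 10 had an unadjusted p under 0.05, against 10.3% of all genes, and ranges did not overlap for 3, against 10.3%. On the same libraries DESeq2 called 2 of the 10 higher, Nfkbia and Tnfaip3, and limma 1, Nfkbia, where DESeq2 called 1.58% of all genes higher and 2.67% lower and limma 0.505% higher and 0.213% lower. The median log2 fold change of the 10 was 0.69 with fibril-loaded and 0.97 with untreated neurons over microglia alone, where the medians of all tested genes were -0.04 and -0.05. These comparisons share the 4 libraries of microglia alone. Between fibril-loaded and untreated neurons edgeR, DESeq2 and limma each called 0 of the 10, and 0% of all genes were called by edgeR in either direction, where DESeq2 called 1.13% higher and 0.251% lower and limma 0%. None of the 10 had an unadjusted p under 0.05 there, against 3.95% of all genes, and ranges did not overlap for 1, Tnfaip3, against 4.68%.

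**Figure D1:**
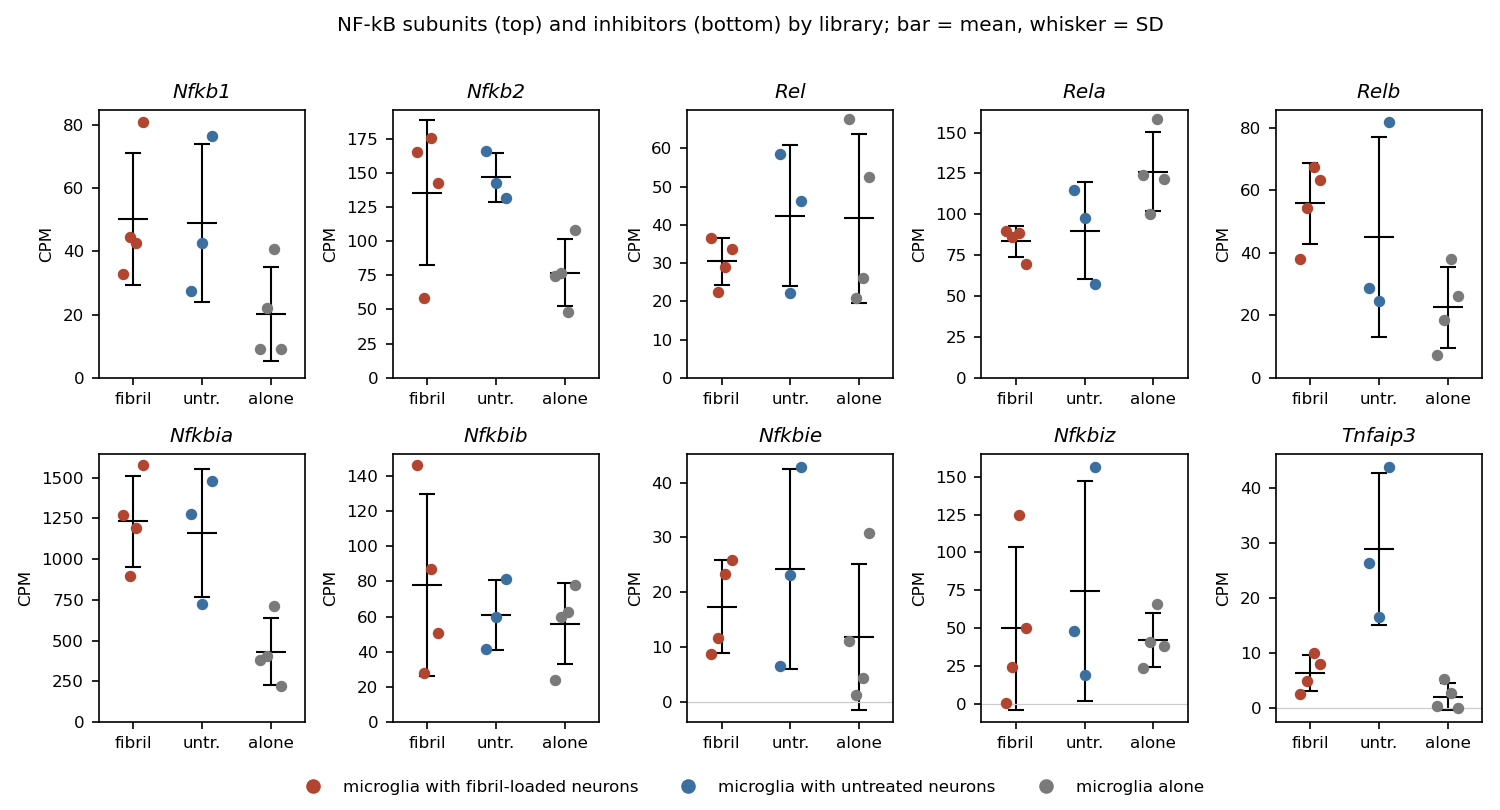
CPM (vertical axes, linear, one scale per gene) of the 5 subunit genes in the upper row and the 5 inhibitor genes in the lower row, with 1 point per library, the mean as a bar and the SD as whiskers, for microglia with fibril-loaded neurons (n = 4), with untreated neurons (n = 3) and alone (n = 4). Every co-culture point of Nfkbia lies above every point of microglia alone, by a narrow margin of 723 against 714 CPM at the nearest, and the 3 points of Tnfaip3 with untreated neurons lie above all others.

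Nfkbia was by far the most abundant of the 10, with a mean of 921 CPM over the 11 libraries that ranked it 97 among the 11276 genes. Its lowest library, at 221 CPM, lay above the highest value of any other member, 175 CPM for Nfkb2. Below it the means over 11 libraries were 117 CPM for Nfkb2, 101 CPM for Rela, 65.3 CPM for Nfkbib, 53.9 CPM for Nfkbiz, 40.8 CPM for Relb, 39.0 CPM for Nfkb1, 37.8 CPM for Rel, 17.2 CPM for Nfkbie and 10.9 CPM for Tnfaip3. From Nfkb2 downward, the ranges of each pair of neighbours in this order overlapped.

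Rela encodes p65, a subunit with a transactivation domain and the usual partner of p50. It had 90.1, 86.2, 88.4 and 69.7 CPM with fibril-loaded neurons, 115, 97.6 and 57.3 CPM with untreated neurons, and 124, 100.3, 159 and 121 CPM in microglia alone. The libraries with fibril-loaded neurons all lay below those of microglia alone, while those with untreated neurons overlapped them. Over microglia alone, its log2 fold change was -0.59 ± 0.31 (SE) with fibril-loaded neurons, with an edgeR adjusted p of 0.698. With untreated neurons it was -0.49 ± 0.34 over microglia alone, with an edgeR adjusted p of 0.726.

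Nfkb1 encodes p105, the precursor of p50, which lacks a transactivation domain. It had 32.9, 44.5, 42.7 and 80.8 CPM with fibril-loaded neurons, 27.6, 42.7 and 76.5 CPM with untreated neurons, and 9.01, 22.0, 40.7 and 9.03 CPM in microglia alone. Libraries 1 and 4 of microglia alone were the lowest of the 11, and library 3 overlapped the co-cultures. For Nfkb1 the log2 fold change over microglia alone was 1.32 ± 0.57 (SE) with fibril-loaded neurons, where the unadjusted p was 0.0318 and the edgeR adjusted p 0.573. With untreated neurons it was 1.28 ± 0.60, with an edgeR adjusted p of 0.48.

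Nfkb2 encodes p100, which serves as an inhibitor until it is processed to p52 in the non-canonical pathway. It had 166, 58.5, 175 and 143 CPM with fibril-loaded neurons, 166, 143 and 132 CPM with untreated neurons, and 74.6, 76.4, 48.1 and 108 CPM in microglia alone. The libraries with untreated neurons all lay above those of microglia alone, and so did 3 of the 4 with fibril-loaded neurons, library 2 being the exception. For Nfkb2 the log2 fold change over microglia alone was 0.82 ± 0.35 (SE, edgeR adjusted p = 0.573) with fibril-loaded neurons. It was 0.93 ± 0.37 (SE, edgeR adjusted p = 0.392) with untreated neurons. The annotated Nfkb2 gene overlaps Psd and the long noncoding RNA 4833438C02Rik, and whether counting used strand is not given in the sources used here, so its reads and those of its neighbours cannot be told apart.

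Relb encodes RelB, the usual partner of p52. It had 38.1, 54.4, 67.3 and 63.4 CPM with fibril-loaded neurons, 28.8, 24.6 and 81.8 CPM with untreated neurons, and 7.44, 18.4, 37.9 and 26.2 CPM in microglia alone. The libraries with fibril-loaded neurons lay just above those of microglia alone, 38.1 against 37.9 CPM at the nearest, while library 3 with untreated neurons was the highest of all and the other 2 lay within the range of microglia alone. The log2 fold change over microglia alone was 1.31 ± 0.55 (SE, edgeR adjusted p = 0.56) with fibril-loaded and 1.00 ± 0.58 (SE, edgeR adjusted p = 0.592) with untreated neurons. Rel encodes c-Rel, a subunit prominent in lymphoid and myeloid cells. It had 36.5, 22.4, 29.1 and 33.7 CPM with fibril-loaded neurons, 58.7, 22.3 and 46.2 CPM with untreated neurons, and 67.6, 20.9, 26.0 and 52.5 CPM in microglia alone. The groups overlapped throughout, with log2 fold changes over microglia alone of -0.46 ± 0.52 with fibril-loaded and 0.02 ± 0.56 with untreated neurons (SE). Of the 5 subunit genes 0 were called in any comparison by edgeR, DESeq2 or limma.

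IκBα, the product of Nfkbia, binds the p50 and p65 pair and is resynthesised after NF-kB enters the nucleus. Nfkbia had 1268, 893, 1194 and 1575 CPM with fibril-loaded neurons, 1279.9, 723 and 1480.02 CPM with untreated neurons, and 381, 405, 714 and 221 CPM in microglia alone. All 7 co-culture libraries lay above all 4 of microglia alone. Nfkbia averaged 1233 ± 280.05 CPM with fibril-loaded neurons (SD, n = 4), 1161 ± 392 CPM with untreated neurons (SD, n = 3) and 430.4 ± 206 CPM in microglia alone (SD, n = 4). It was 2.86-fold higher with fibril-loaded neurons than in microglia alone, a log2 fold change of 1.52 ± 0.32 (SE) with a 95% interval of 0.85 to 2.19 and an edgeR adjusted p of 0.0393. With untreated neurons the fold over microglia alone was 2.70, a log2 fold change of 1.43 ± 0.34 (SE) with a 95% interval of 0.72 to 2.14, and its edgeR adjusted p of 0.0578 did not pass. The fibril-loaded co-culture differed from the untreated one by a log2 fold change of 0.09 ± 0.34 (SE, edgeR adjusted p = 1), with a 95% interval of -0.62 to 0.80.

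The Nfkbia call with fibril-loaded neurons was not kept in every refit that left out 1 library. With each of the 11 left out in turn the log2 fold change over microglia alone ran from 1.30 to 1.90 and the edgeR adjusted p from 0.00702 to 0.146. The call was lost in 6 of the 11 refits, with log2 fold changes of 1.505, 1.53 and 1.38 without libraries 1, 3 and 4 with fibril-loaded neurons, and of 1.48, 1.52 and 1.30 without libraries 1, 2 and 4 of microglia alone. With untreated neurons the adjusted p over the same refits ran from 0.0138 to 0.244, and the gene passed in 2, without library 3 of microglia alone and without library 2 with untreated neurons. Library 3 of microglia alone held the highest value of its group for Nfkbia as well as for Nfkb1, Rela, Relb and Nfkbiz. The microglial marker sum was higher, and the neuronal marker sum and the Rn45s share lower on average, in both co-cultures than in microglia alone, and their part in the Nfkbia difference was not tested. With Rn45s removed, the log2 fold change was 1.53 with fibril-loaded and 1.43 with untreated neurons. In bulk RNA, fewer cells of a type and less RNA per cell cannot be told apart.

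**Figure D2:**
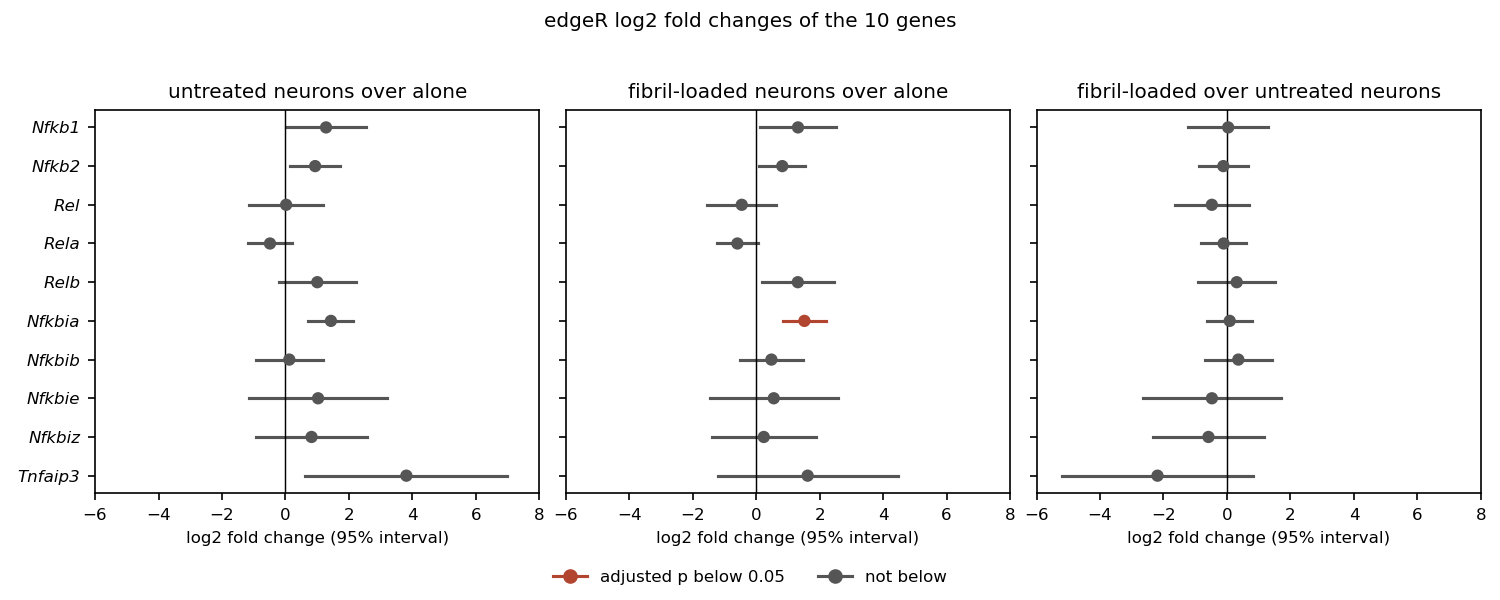
edgeR log2 fold changes (horizontal axes) of the 10 genes with 95% intervals, for untreated neurons over microglia alone, fibril-loaded neurons over microglia alone and fibril-loaded over untreated neurons. Nfkbia with fibril-loaded neurons over microglia alone, at 1.52, is the 1 point with an adjusted p under the threshold, and every interval of the right panel includes 0.

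Tnfaip3 encodes A20, which edits ubiquitin chains on signalling proteins upstream of the IκB kinase. It had 2.57, 4.79, 10.04 and 7.90 CPM with fibril-loaded neurons, from 37, 41, 107 and 119 counts. It had 26.2, 16.5 and 43.9 CPM with untreated neurons, from 434, 184 and 740 counts. It had 0.313, 5.16, 2.75 and 0 CPM in microglia alone, from 4, 52, 31 and 0 counts, and a count of 0 allows up to 0.251 CPM in that library, for counting error only. The libraries with untreated neurons lay above all others, and those with fibril-loaded neurons overlapped those of microglia alone. The log2 fold change of Tnfaip3 with untreated neurons over microglia alone was 3.81 ± 1.53 (SE), a fold of 14.02, with a 95% interval of 0.63 to 6.99. Its unadjusted p was 0.0211 and its edgeR adjusted p 0.394, whereas DESeq2 gave an adjusted p of 0.0365. Over the alternatives other than leaving out 1 library, the adjusted p ran from 0.0365 to 0.595. With fibril-loaded neurons over microglia alone the log2 fold change was 1.62 ± 1.37 (SE, edgeR adjusted p = 1). With fibril-loaded over untreated neurons it was -2.19 ± 1.45 (SE), with a 95% interval of -5.20 to 0.82, an unadjusted p of 0.145 and an edgeR adjusted p of 1. The biological coefficient of variation of Tnfaip3 was 1.20, the highest of the 10, against 0.355 for Nfkbia.

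Nfkbib encodes IκBβ, which binds many of the same pairs as IκBα. It had 146, 27.9, 87.2 and 50.4 CPM with fibril-loaded neurons, 41.4, 60.0 and 81.1 CPM with untreated neurons, and 23.7, 59.9, 62.4 and 78.0 CPM in microglia alone. The groups overlapped, and the log2 fold change over microglia alone was 0.48 ± 0.47 with fibril-loaded and 0.12 ± 0.51 with untreated neurons (SE). The annotated Nfkbib gene overlaps Ccer2, with which it may share reads, and Nfkb1 overlaps the gene model Gm46827. Nfkbie encodes IκBε, another cytoplasmic inhibitor. It had 8.68, 11.7, 23.4 and 25.9 CPM with fibril-loaded neurons, 6.53, 23.1 and 42.9 CPM with untreated neurons, and 11.1, 1.19, 4.34 and 30.8 CPM in microglia alone. Each group spread over several fold, and the log2 fold change of Nfkbie over microglia alone was 0.55 ± 0.97 with fibril-loaded and 1.03 ± 1.04 with untreated neurons (SE).

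Nfkbiz encodes IκBζ, a nuclear member of the family that acts on secondary response genes such as Il6 rather than holding NF-kB in the cytoplasm. It had 0.972, 24.3, 124.5 and 49.9 CPM with fibril-loaded neurons, 48.3, 19.3 and 156.6 CPM with untreated neurons, and 23.96, 40.8, 66.3 and 38.2 CPM in microglia alone. The 4 libraries with fibril-loaded neurons spanned a 128-fold range, the lowest of them resting on 14 counts. The log2 fold change over microglia alone was 0.24 ± 0.79 with fibril-loaded and 0.82 ± 0.84 with untreated neurons (SE), and both turned negative when library 3 of the co-culture was left out, at -0.76 and -0.32. Library 3 with untreated neurons was the highest of the 11 for 4 members, Relb, Nfkbie, Nfkbiz and Tnfaip3, and the lowest for Rela.

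Between the co-cultures, the log2 fold changes of the 10 genes, fibril-loaded over untreated, were positive for 4 and negative for 6, with a median of -0.11. Their sizes ran from -2.19 for Tnfaip3 to 0.36 for Nfkbib. The 95% interval reached from -0.80 to 0.59 for Rela, from -0.89 to 0.67 for Nfkb2 and from -1.23 to 1.30 for Nfkb1, and differences of either sign within these bounds are not excluded.

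Summed over the genes, the ratio of IκB to subunit transcripts had a higher mean in both co-cultures than in microglia alone. The 5 subunit genes together had 356 ± 62.0 CPM with fibril-loaded neurons (SD, n = 4), 373 ± 37.5 CPM with untreated neurons (SD, n = 3) and 287 ± 36.2 CPM in microglia alone (SD, n = 4). The 4 genes of the IκB family, Nfkbia, Nfkbib, Nfkbie and Nfkbiz, had 1378 ± 309 CPM with fibril-loaded neurons, 1321 ± 470.2 CPM with untreated neurons and 541 ± 212 CPM in microglia alone. Their ratio was 3.92, 3.60, 3.55 and 4.36 with fibril-loaded neurons, 3.47, 2.50 and 4.48 with untreated neurons, and 1.56, 2.13, 2.72 and 1.16 in microglia alone. The ratios with fibril-loaded neurons all lay above those of microglia alone, while library 2 with untreated neurons, at 2.50, lay below library 3 of microglia alone, at 2.72. Without Nfkbia the IκB sum was 145 ± 71.1 CPM with fibril-loaded neurons, 159.8 ± 105 CPM with untreated neurons and 110.1 ± 39.1 CPM in microglia alone, and the ranges of the groups overlapped. Nfkbia alone made up 70.9% ± 4.37 of the CPM of the 10 genes with fibril-loaded neurons, 66.7% ± 4.76 with untreated neurons and 50.1% ± 12.5 in microglia alone. These sums were not tested.

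**Figure D3:**
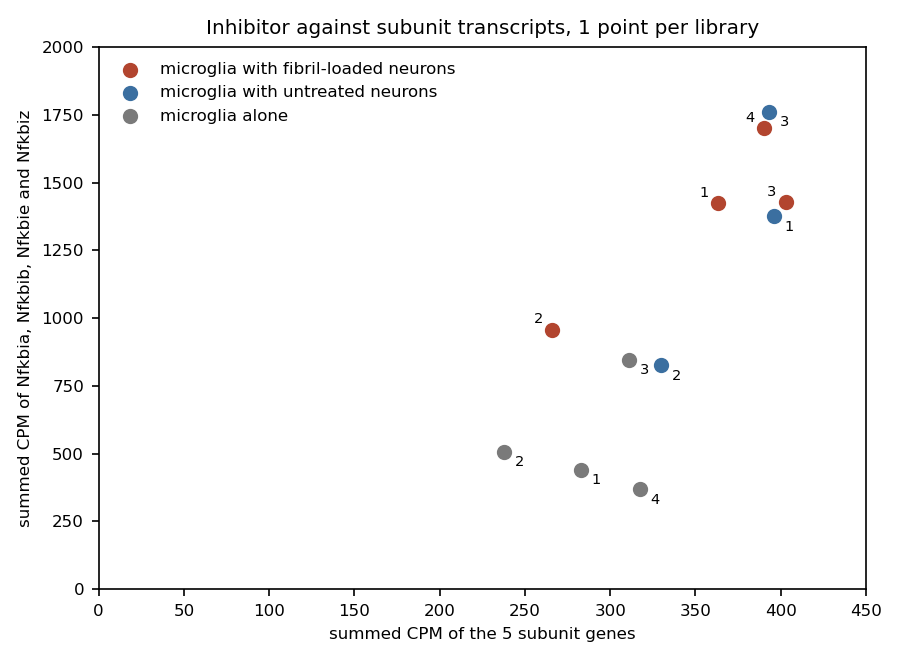
Summed CPM of the 4 IκB family genes (vertical axis) against summed CPM of the 5 subunit genes (horizontal axis), 1 point per library with its number in its group, for microglia with fibril-loaded neurons, with untreated neurons and alone. Microglia alone lie between 368 and 847 CPM of IκB transcripts and the co-cultures between 825 and 1761 CPM. The subunit sums lie between 238 and 317 CPM in microglia alone and between 266 and 403 CPM with fibril-loaded neurons, which overlap. With untreated neurons they lie between 330 and 396 CPM, above microglia alone.

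Upstream of IκB, the IκB kinase family member Ikbke was the 1 of 17 tested kinase and kinase-partner genes that edgeR and limma called, higher in both co-cultures. Of all genes, edgeR called 0.266% higher with fibril-loaded and 0.461% higher with untreated neurons. DESeq2 also called Ikbke in both. With fibril-loaded neurons DESeq2 called Irak3, named after its value was seen, which encodes an inhibitory kinase-like protein of Toll-like receptor signalling. DESeq2 called 1.27% of all genes higher with fibril-loaded and 1.58% higher with untreated neurons. Irak3 averaged 52.2 ± 26.8 CPM with fibril-loaded neurons, 33.1 ± 17.7 CPM with untreated neurons and 9.51 ± 5.59 CPM in microglia alone. IKKε, the product of Ikbke, is a non-canonical kinase best known for activating interferon regulatory factors. Ikbke had 196, 177, 343 and 415 CPM with fibril-loaded neurons, 259.6, 255 and 289 CPM with untreated neurons, and 13.9, 11.01, 72.0 and 87.5 CPM in microglia alone. No co-culture library overlapped microglia alone. The log2 fold change over microglia alone was 2.62 ± 0.52 (SE, edgeR adjusted p = 0.0201) with fibril-loaded and 2.54 ± 0.54 (SE, edgeR adjusted p = 0.0277) with untreated neurons. The first was not called without library 3 (2.51) or 4 (2.37) with fibril-loaded neurons or library 1 (2.33) or 2 (2.31) of microglia alone, and the second without library 3 with untreated neurons (2.48) or library 1 (2.24) or 2 (2.21) of microglia alone. The median log2 fold change of the 17 genes was 0.19 with fibril-loaded and 0.71 with untreated neurons over microglia alone. Of 16 tested adaptor and ubiquitin ligase genes 0 were called by edgeR, DESeq2 or limma. With fibril-loaded neurons 1 had an unadjusted edgeR p under 0.05, against 8.14% of all genes. With untreated neurons 0 did, against 10.3% of all genes. The median log2 fold change of the 16 over microglia alone was 0.03 with fibril-loaded and -0.08 with untreated neurons. It was positive for 8 and 7 of them, where 47.9% and 47.7% of all tested genes were positive. Among the 16, Myd88 encodes the adaptor of most Toll-like receptors. Myd88 averaged 60.5 ± 22.4 CPM with fibril-loaded neurons, 55.1 ± 12.7 CPM with untreated neurons and 26.3 ± 16.8 CPM in microglia alone (SD). Its edgeR adjusted p over microglia alone was 0.563 with fibril-loaded and 0.502 with untreated neurons.

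Of 18 tested negative regulators other than the members, edgeR called 0 with fibril-loaded neurons and 1, N4bp1, with untreated neurons. Of all genes it called 0.266% and 0.461% higher. Among the 18, 4 and 6 had an unadjusted p under 0.05, against 8.14% and 10.3% of all genes. DESeq2 called N4bp1 higher in both co-cultures than in microglia alone and limma called it with untreated neurons. DESeq2 also called Otulin lower with untreated neurons than in microglia alone, and Tnip2 higher with fibril-loaded than with untreated neurons, both named after their values were seen. Over microglia alone, DESeq2 called 1.27% of all genes higher with fibril-loaded neurons, and 1.58% higher and 2.67% lower with untreated neurons. Between the co-cultures it called 1.13% of all genes higher with fibril-loaded neurons. Otulin, which encodes an enzyme that removes linear ubiquitin chains, averaged 41.0 ± 24.8 CPM with fibril-loaded neurons, 12.1 ± 3.74 CPM with untreated neurons and 67.3 ± 37.2 CPM in microglia alone, and edgeR gave an adjusted p of 0.136 for untreated neurons over microglia alone. Tnip2, which encodes a partner of A20, averaged 24.5 ± 6.84 CPM with fibril-loaded neurons, 3.07 ± 1.22 CPM with untreated neurons and 16.98 ± 10.8 CPM in microglia alone, and edgeR gave an adjusted p of 1 for fibril-loaded over untreated neurons. The product of N4bp1 restrains NF-kB signalling by binding ubiquitin chains. N4bp1 had 135, 103, 246 and 88.4 CPM with fibril-loaded neurons, 313, 141 and 254 CPM with untreated neurons, and 60.5, 61.0, 53.3 and 35.7 CPM in microglia alone. All co-culture libraries lay above microglia alone. Its log2 fold change over microglia alone was 1.45 ± 0.36 (SE, edgeR adjusted p = 0.107) with fibril-loaded and 2.17 ± 0.38 (SE, edgeR adjusted p = 0.00724) with untreated neurons. Bcl3 encodes an IκB-like protein that works in the nucleus with p50 or p52. It had 22.8, 14.2, 29.6 and 27.7 CPM with fibril-loaded neurons, 24.1, 25.8 and 54.6 CPM with untreated neurons, and 0, 5.55, 1.42 and 8.53 CPM in microglia alone. Each co-culture lay above microglia alone, while the co-cultures overlapped each other, and the log2 fold change over microglia alone was 2.60 ± 1.05 (SE, edgeR adjusted p = 0.513) with fibril-loaded and 3.17 ± 1.11 (SE, edgeR adjusted p = 0.28) with untreated neurons. Bcl3 was 1 of 3 tested IκB-like genes outside the 10, of which edgeR, DESeq2 and limma called 0. The median log2 fold change of the 3 over microglia alone was -0.08 with fibril-loaded and 0.33 with untreated neurons. It was positive for 1 and 2 of them. Ranges did not overlap for 1 of the 3 in each comparison, against 5.62% and 10.3% of all genes. Of 13 tested coactivators and corepressors 0 were called by edgeR, DESeq2 or limma. An unadjusted edgeR p under 0.05 was found for 2 with fibril-loaded and 3 with untreated neurons, against 8.14% and 10.3% of all genes. The median log2 fold change of the 13 was -0.23 with fibril-loaded and -0.54 with untreated neurons over microglia alone.

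Among genes known as NF-kB targets, 42 of 46 listed were tested. With fibril-loaded neurons 4 were called higher than in microglia alone, and with untreated neurons 5, with 0 called lower in either. Of all genes, edgeR called 0.266% and 0.461% higher. DESeq2 called 8 higher and 0 lower with fibril-loaded neurons and 10 higher and 1 lower, Bcl2l1 (named after its value was seen), with untreated neurons. Of all genes, DESeq2 called 1.27% and 1.58% higher and 1.03% and 2.67% lower. Calls by limma were 4 and 6 higher and 0 lower, where it called 0.319% and 0.505% of all genes higher. Positive log2 fold changes over microglia alone were found for 34 of the 42 with fibril-loaded and 37 with untreated neurons, where 47.9% and 47.7% of all tested genes were positive. The median log2 fold change of the 42 was 1.06 with fibril-loaded and 1.17 with untreated neurons, against -0.04 and -0.05 for all genes. Between the co-cultures edgeR, DESeq2 and limma each called 0 of the 42, and their median was -0.13. An unadjusted edgeR p under 0.05 was found for 1 there, against 3.95% of all genes. The list was drawn up with earlier results of these libraries known, so its counts are not independent evidence of a direction.

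Sod2, a mitochondrial superoxide dismutase, had 475, 435, 841 and 1051 CPM with fibril-loaded neurons, 537, 412 and 1161 CPM with untreated neurons, and 89.6, 127, 219.6 and 60.4 CPM in microglia alone. All co-culture libraries lay above microglia alone. Its log2 fold change over microglia alone was 2.50 ± 0.41 (SE, edgeR adjusted p = 0.00486) with fibril-loaded and 2.50 ± 0.43 (SE, edgeR adjusted p = 0.00559) with untreated neurons. Tlr2, a receptor for bacterial lipoproteins, averaged 279 ± 108 CPM with fibril-loaded neurons, 294 ± 123 CPM with untreated neurons and 61.0 ± 32.3 CPM in microglia alone. Its log2 fold change over microglia alone was 2.19 ± 0.38 (SE, edgeR adjusted p = 0.00584) with fibril-loaded and 2.27 ± 0.39 (SE, edgeR adjusted p = 0.00613) with untreated neurons. The calls of Sod2 and Tlr2 held with any 1 library left out. Tnfrsf1b, which encodes TNF receptor 2, averaged 362 ± 109 CPM with fibril-loaded neurons, 443 ± 140 CPM with untreated neurons and 123 ± 37.1 CPM in microglia alone. It rose by 1.56 ± 0.31 (SE, edgeR adjusted p = 0.0201) on the log2 scale with fibril-loaded and by 1.85 ± 0.32 (SE, edgeR adjusted p = 0.00679) with untreated neurons. With fibril-loaded neurons it was not called without library 3 (1.58) or 4 (1.35) of that group or library 1 (1.53), 2 (1.58) or 4 (1.43) of microglia alone.

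Ehd1, an endocytic recycling protein, averaged 890 ± 319 CPM with fibril-loaded neurons, 658 ± 120 CPM with untreated neurons and 243 ± 93.0 CPM in microglia alone. It rose by 1.87 ± 0.32 (SE, edgeR adjusted p = 0.00584) on the log2 scale with fibril-loaded and by 1.44 ± 0.33 (SE, edgeR adjusted p = 0.0488) with untreated neurons. The second call rested on a narrow margin and was kept in 3 of the 11 refits without 1 library, in which the log2 fold change ran from 1.29 to 1.63. It was lost without libraries 1, 3 and 4 with fibril-loaded neurons (1.44 in each), 1 (1.34) and 3 (1.39) with untreated neurons, and 1 (1.29), 2 (1.29) and 4 (1.59) of microglia alone. Cxcl10, a chemokine that draws T cells and is also an interferon target, had 165, 29.0, 90.6 and 71.1 CPM with fibril-loaded neurons, 418, 48.5 and 147 CPM with untreated neurons, and 2.82, 12.2, 39.9 and 3.26 CPM in microglia alone. It was called with untreated neurons over microglia alone, at a log2 fold change of 3.81 ± 0.79 (SE, edgeR adjusted p = 0.026), and not with fibril-loaded neurons, at 2.62 ± 0.73 (SE, edgeR adjusted p = 0.176). Without library 1 with untreated neurons the value was 2.76 and was not called, and the call was also lost without library 1 (3.48), 2 (3.75) or 4 (3.48) of microglia alone. With fibril-loaded neurons it was called without library 3 of microglia alone, at 3.89.

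Among the classical cytokine targets, Tnf and Il1b were not called by edgeR in any comparison. Tnf had 214, 15.2, 157 and 244 CPM with fibril-loaded neurons, 128, 50.8 and 186 CPM with untreated neurons, and 49.1, 28.4, 78.0 and 71.2 CPM in microglia alone. The groups overlapped, library 2 with fibril-loaded neurons being the lowest of all. For Tnf the log2 fold change over microglia alone was 1.48 ± 0.56 (SE, edgeR adjusted p = 0.45) with fibril-loaded and 1.10 ± 0.59 (SE, edgeR adjusted p = 0.533) with untreated neurons. Il1b averaged 25.0 ± 35.0 CPM with fibril-loaded neurons (SD, n = 4), 63.0 ± 69.5 CPM with untreated neurons (SD, n = 3) and 9.62 ± 8.73 CPM in microglia alone (SD, n = 4). For Il1b it was 1.38 ± 1.45 (SE, edgeR adjusted p = 1) with fibril-loaded and 2.71 ± 1.57 (SE, edgeR adjusted p = 0.595) with untreated neurons, and with no low-count filter Il1b was called with untreated neurons, at an edgeR adjusted p of 0.0241 in a range of 0.0241 to 0.967 over the alternatives other than leaving out 1 library.

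**Figure D4:**
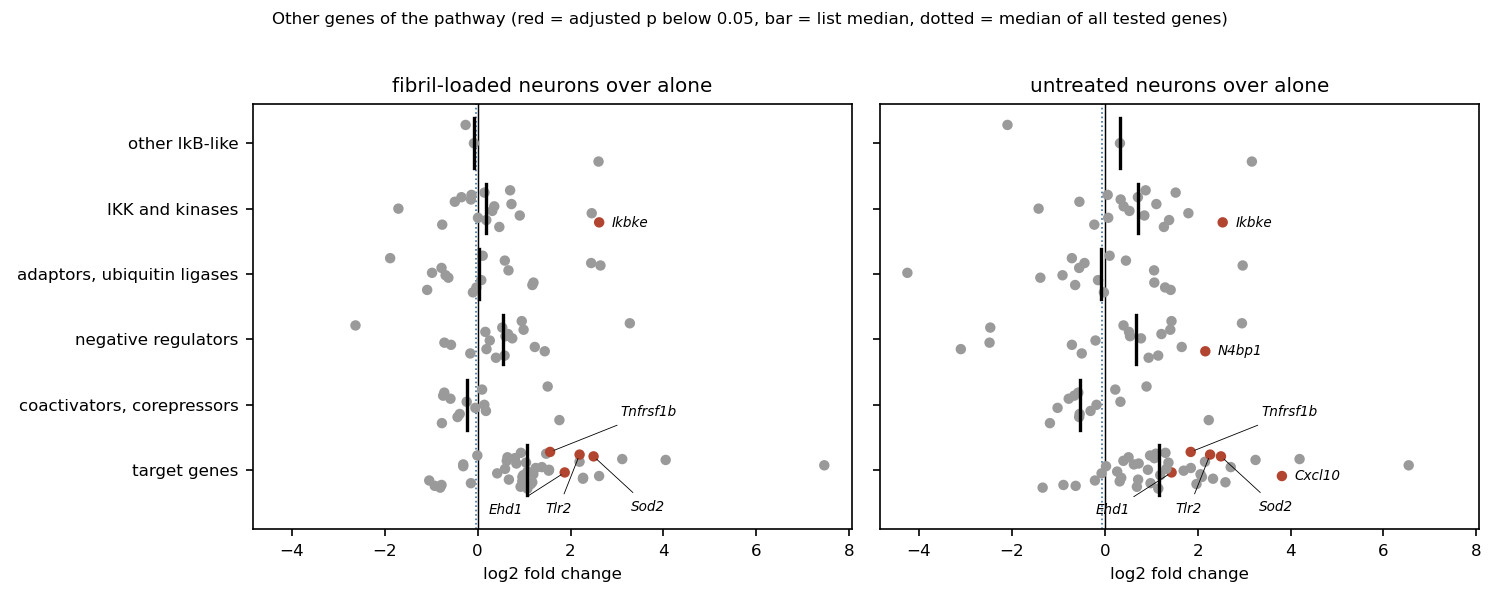
edgeR log2 fold changes over microglia alone (horizontal axes) of the tested genes of 6 pathway lists, 1 point per gene, for microglia with fibril-loaded neurons and with untreated neurons, with genes of adjusted p under 0.05 in red and named, the median of each list as a black bar and that of all tested genes as a dotted line. The target genes have medians of 1.06 and 1.17, to the right of the other lists in both panels, and Ikbke, N4bp1, Cxcl10, Sod2, Tlr2, Tnfrsf1b and Ehd1 are the called genes.

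Across the 11 libraries, the genes whose log2(CPM + 1) followed that of Nfkbia most closely, among 3117 genes of at least 50 CPM, were Sod2 (Pearson r = 0.966), Tnfrsf1b (0.965), Gpr84 (0.954), Nadk (0.940) and Ctsc (0.937). These values are descriptions over libraries that fall into 3 groups, and the group difference itself enters them. Gpr84, a receptor for medium-chain fatty acids, averaged 404 ± 127 CPM with fibril-loaded neurons, 359 ± 66.3 CPM with untreated neurons and 29.0 ± 28.4 CPM in microglia alone. Nadk, which makes NADP from NAD, averaged 230 ± 59.8 CPM with fibril-loaded neurons, 260.3 ± 73.0 CPM with untreated neurons and 90.2 ± 31.0 CPM in microglia alone. The genes closest to Tnfaip3 were Slc31a2 (0.917), Ewsr1 (0.917), Rps24 (0.908), Spata13 (0.904) and App (0.902). Spata13 averaged 51.5 ± 17.3 CPM with fibril-loaded neurons, 134 ± 31.1 CPM with untreated neurons and 21.2 ± 15.5 CPM in microglia alone, so that, as for Tnfaip3, its highest mean was that with untreated neurons. For Nfkbia and Tnfaip3 the closest genes were different ones, and no gene stood among the 5 of both.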

How the data were processed

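Expression was measured in 11 libraries. The authors deposited raw counts by gene symbol, with large counts given to 6 significant digits. STAR, Partek, DESeq2 and mm10 appear in the submitters' processing notes, with no versions. Strand and duplicate handling are not given in the sources used here. A second deposited table holds normalized values, handled as a score, that lay within 1 unit plus 0.1% of the raw count over 1 size factor for each library. Groups came from the treatment group in the labels, and libraries were numbered in accession order.

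The tests used edgeR 4.0.16 in R 4.3.3 (TMM, filterByExpr, quasi-likelihood test, group as the only term, all 11 libraries, threshold 0.05), with Benjamini-Hochberg adjustment over the 11276 tested genes. Intervals use edgeR's standard error and the t distribution. The script was tested on simulated counts. Total counts ran from 8253070 to 16802451, the common biological coefficient of variation was 1.15, and log2 CPM of library pairs correlated at 0.818 to 0.911. Alternatives were no low-count filter, a mean of at least 5 CPM, RLE scaling, Rn45s removed, DESeq2 1.42.0, limma 3.58.1 on log2(normalized value + 1), the 2 groups compared only, libraries left out and, added after seeing the data, a block of library-number sets.

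The 10 genes and the pathway and marker lists were chosen with earlier results of these data known. Named were the 10 genes, every called gene of a pathway list or otherwise examples from the 3 with the smallest p with untreated neurons, Tnf and Il1b, and the 5 genes most like Nfkbia and Tnfaip3; 1 gene so named is not reported here. Gene coordinates and promoters are RefSeq's on GRCm38.p6.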

Additional observations from a re-analysis of the deposited data

How the results depend on the processing

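Nfkbia kept a positive log2 fold change over microglia alone in every setting tried, 1.30 to 1.90 with fibril-loaded and 1.21 to 1.79 with untreated neurons. What changed was whether it passed, and with it the number of the 10 genes called. With fibril-loaded neurons that number was 1, but 0 with a mean of at least 5 CPM, 0 with the 2 groups compared only, and 0 without the library with the fewest detected genes in each group. With untreated neurons it was 0, but 1 with no low-count filter, 2 by DESeq2 and 1 by limma. It ran from 0 to 1 in each comparison with 1 library left out. Among all genes, the 72 called with untreated neurons became 234 with no filter, 47 at 5 CPM, 491 by DESeq2, 41 with the 2 groups only and 29 without the fewest-gene libraries, and ran from 32 to 76 with 1 library left out. The 36 called with fibril-loaded neurons became 164 with no filter and 262 by DESeq2, and ran from 23 to 42 with 1 left out. The 0 called between the co-cultures became 5 with no filter, 170 by DESeq2 and 1 without the fewest-gene libraries, and ran from 0 to 1 with 1 left out. The causes were not tested.

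Some small log2 fold changes changed sign. With 1 library left out, untreated neurons over microglia alone gave -0.28 to 0.35 for Rel, -0.14 to 0.34 for Nfkbib, -0.32 to 1.28 for Nfkbiz and -0.069 to 0.82 for Nfkbid. Nfkbid was also -0.10 by limma and -0.013 without the fewest-gene libraries. Fibril-loaded neurons over microglia alone gave -0.020 to 0.76 for Nfkbib and -0.76 to 0.65 for Nfkbiz. Nfkbib was also -0.27 without the fewest-gene libraries, and Nfkbiz -1.01 by limma. Fibril-loaded over untreated neurons gave -0.29 to 0.52 for Nfkb1, -0.26 to 0.14 for Nfkb2, -0.35 to 0.13 for Rela, -0.16 to 0.30 for Nfkbia, -0.14 to 0.64 for Nfkbib, -0.90 to 0.23 for Nfkbie and -1.58 to 0.56 for Nfkbiz. Without the fewest-gene libraries it was -0.10 for Nfkb1, 0.074 for Rela and -0.37 for Nfkbib. The cause was not tested. Of the other gene values across settings, 1007 kept direction and side of the threshold, 49 no longer passed and 13 newly passed. The labels give no shared replicate numbers, but the library numbers in the sample titles run in 4 sets at steps of 7. An edgeR fit with these sets as a replicate block, chosen after seeing the data, called 1 of the 10 genes, Nfkbia, with fibril-loaded neurons (adjusted p = 0.0156) and 1, Nfkbia, with untreated neurons (adjusted p = 0.0361). Over all genes it called 66 and 95, and 0 between the co-cultures. With the block, Nfkbib was -0.031 and Nfkbid -0.45 with untreated neurons, and Nfkbiz -0.53 with fibril-loaded neurons. Deviations from the group means, over genes of at least 10 CPM, were correlated between libraries of different groups. They correlated at -0.036 to 0.081 within sets (10 pairs) and -0.089 to 0.079 between them (30 pairs). Of the 11 libraries 5 correlated best with their own set. These values cannot decide whether the sets are shared replicates, which the labels do not state, and the main fit did not use the sets. Low counts limit the values of some libraries, down to 0 counts for Tnfaip3, 12 for Nfkbie and 14 for Nfkbiz. For Nfkbiz the next lowest library had 208 counts.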
